A study of Mus musculus with 6 samples.

Results

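The unfolded protein response is described here through 10 genes, taken by symbol from the 24015 gene symbols counted in each library. They were grouped by the branch they report on: Hspa5, Hsp90b1, Calr and Pdia4 for ATF6 and the chaperones of the endoplasmic reticulum (ER), Xbp1 and Dnajb9 for IRE1, and Atf4, Ddit3, Trib3 and Chac1 for PERK. RNA-Seq was performed on sciatic nerves of mice at postnatal day 14 to compare nerves with and without Rnf40, an E3 ligase subunit for histone H2B, in the Schwann cell lineage. Each of the 6 libraries was made from a pool of 3 nerves. The 3 control libraries came from Rnf40 fl/fl mice without Cre, and the 3 Rnf40ΔSC libraries from Rnf40 fl/fl mice that also carried Dhh::Cre. This transgene acts in the Schwann cell lineage, whereas the RNA came from the whole nerve, with its fibroblasts, perineurial, vascular and immune cells. The labels give all mice a mixed 129SvJ/C57Bl/6J background and the NEB Next Ultra kit, while the methods name C3H with C57Bl/6J and a directional NEXTFLEX kit. Each source gives its description for all 6 libraries alike, and which of them is right is not known.

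Proteins that fail to fold in the ER are sensed by ATF6, IRE1 and PERK. ATF6 is cut in the Golgi to release a transcription factor for chaperone genes, IRE1 splices Xbp1 mRNA to yield an active factor, and PERK phosphorylates eIF2 alpha, which lowers general translation but favours that of ATF4. Schwann cells that form myelin pass large amounts of membrane protein and secreted matrix through the ER.

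The summed gene counts were 1317167, 1992622 and 2468765 for the controls (replicates 1 to 3), and the Rnf40ΔSC libraries followed with 2184268, 1459387 and 2186710. Normalised counts below were brought to one shared library size with TMM, which corrects for a few very abundant genes. On this scale 1 read stood for 0.798 to 1.59 normalised counts. The genotypes were compared using the quasi-likelihood test of edgeR, with p adjusted after Benjamini and Hochberg over the 11371 genes that passed a filter on low counts. A gene is said to have risen or fallen at an adjusted p of at most 0.05.

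Rnf40 itself had 130.2, 126 and 142 normalised counts in control nerves, compared with 90.2, 90.4 and 94.2 in Rnf40ΔSC nerves. All Rnf40ΔSC libraries lay below all controls. The gene fell by 0.54 in log2 terms (edgeR adjusted p = 0.00243, standard error 0.14). Scaled by total counts it was at -0.27 and not called (adjusted p = 0.116, the highest of a range from 0.00235 to 0.116 across alternatives). The counts cover the whole gene and not only the floxed exons 3 and 4. Reads from cells without Cre are included.

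The tissue label was checked against markers of nerve cell types, chosen for naming here after their values were seen. Sox10, a transcription factor of Schwann cells of any stage, had 958, 1055 and 1084 normalised counts in control and 629, 574 and 592 in Rnf40ΔSC libraries. It fell, as did S100b, Erbb3 and Cdh19 (log2 fold changes -0.79, -0.89, -0.60 and -1.20). Of the genes of myelinating Schwann cells, Mag and Ncmap fell (-2.00 and -2.01), whereas Egr2, at 473, 515 and 437 against 594, 527 and 705 normalised counts, rose (0.36, edgeR adjusted p = 0.00577). Under the 13 alternatives the first 6 of these 7 genes kept their calls, and Egr2 lost its call under 1. From these RNA counts of whole nerve, fewer cells of a type and less RNA per cell cannot be told apart. In nerve sections, the paper reports a comparable share of Sox10-positive cells in both genotypes. It also reports more Iba1-positive macrophages in Rnf40ΔSC nerves at postnatal day 14.

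Markers of other cell types differed as well under TMM, but many of these calls depended on the scaling. Of 6 fibroblast markers 5 fell, and their sum was 104252, 101677 and 110313 in control against 77860.1, 74697 and 73732 in Rnf40ΔSC libraries, with Col3a1 the most abundant. Of 6 endothelial markers 5 fell, with sums of 1307, 1149 and 1285 against 813, 849.9 and 977 (Cdh5 the most abundant). Of 7 macrophage markers 5 fell and 1 was not tested, with sums of 718, 649 and 729 against 470.3, 464 and 494 (Csf1r the most abundant). Under total counts 2 fibroblast, 1 endothelial and 2 macrophage markers fell and 1 fibroblast marker rose, with medians of -0.06, -0.29 and -0.27. Of all genes tested, 16.2% were lower under TMM, and 7.79% were lower and 32.9% higher under total counts. The group of 10 skeletal muscle fibre genes, with Myh4 the most abundant, had none that passed the test (up to 9 lower when 1 library was left out) and sums of 7764, 5792 and 4347 in control but 166, 422 and 5552 in Rnf40ΔSC libraries. Rnf40ΔSC replicate 3 therefore resembled the controls in muscle RNA, and the other 2 Rnf40ΔSC libraries did not. The part of these cell types in the results below was not tested, and the values of the called members without Rnf40ΔSC replicate 3 are given beside them.

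**Figure D1:**
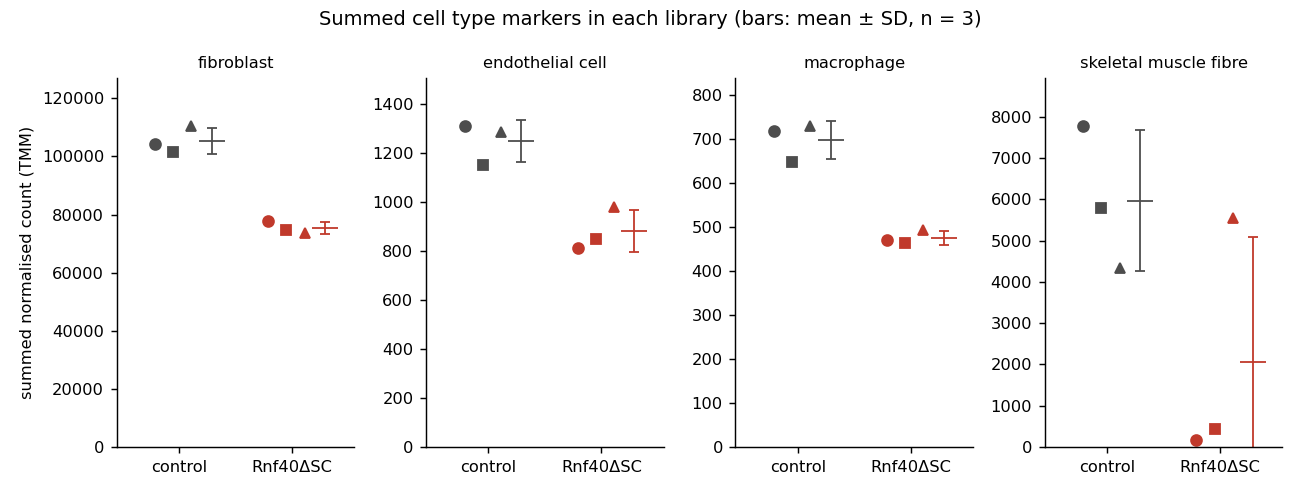
Summed normalised counts (vertical axes, from 0) of 4 marker lists in the control (grey) and Rnf40ΔSC (red) libraries, with mean ± SD (n = 3, lower bars cut at 0). Fibroblast, endothelial and macrophage sums were lower in every Rnf40ΔSC library, and the muscle sum of 5552 in Rnf40ΔSC replicate 3 lay among the control values.

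Of the 10 genes, 8 passed the filter on low counts, and Trib3 and Chac1 did not. Hspa5 rose and Atf4 fell, so that 1 of 8 was higher, where 15.5% of all genes tested were, and 1 of 8 was lower, where 16.2% of all genes were. These shares are near those of all genes. None of the 8 passed the limits the study used for changed genes (p up to 0.05, read here as adjusted p, a log2 fold change of 0.8 or more in either direction and a base mean, the average over the 6 libraries, from 20 upwards), which 8.78% of all genes tested passed by edgeR. At an unadjusted p under 0.05, 2 of them were called, again Hspa5 and Atf4, and DESeq2 with or without its fold-change prior also placed 0 past the limits. No share of all genes is given for these 2 counts, which are not read as a result about the members. The libraries of the genotypes did not overlap for 2 of the 8, Hspa5 and Atf4, where this held for 43.5% of all genes tested.

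The scaling mattered for genes with small differences. Scaling by total counts in place of TMM raised the log2 fold changes of all genes by 0.27 (median), and the share of higher genes among all called genes went from 48.8% to 80.8%. Under it 4 of the 8 genes were higher, namely all 4 of the ATF6 branch, beside 32.9% of all genes, and 1 of 8, Atf4, was lower, beside 7.79% of all genes.

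**Figure D2:**
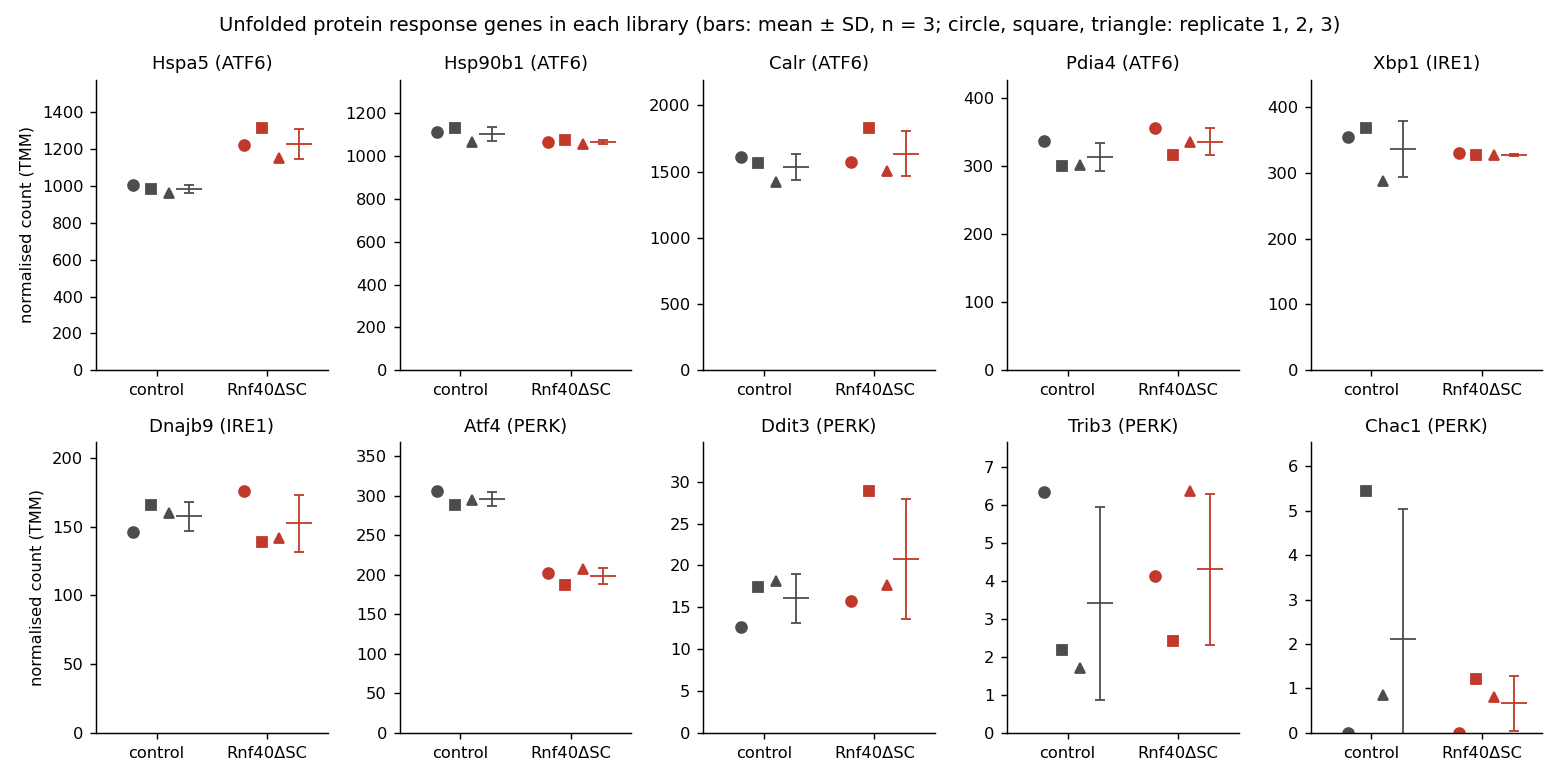
Normalised counts (vertical axes, from 0, scales differ) of the 10 genes in the control (grey) and Rnf40ΔSC (red) libraries, with mean ± SD (n = 3, lower bars cut at 0). Hspa5 reached 1152 to 1315 in Rnf40ΔSC against 961 to 1005 in control libraries, and Atf4 187 to 207 against 288 to 306.

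The promoters of the ER chaperones are shown because ATF6 and its partner NF-Y are known to bind the ER stress response element (ERSE), CCAAT and CCACG with 9 bases between them. All 10 genes had a window from 250 bases before to 50 after the start in the RefSeq promoter sequences of GRCm38.p6. Searched on both strands, an ERSE was found in 39 of 32851 such windows (0.119%) and in 3 of the 10 genes, Hspa5, Hsp90b1 and Calr. The stretches below are written 5′ to 3′ on the strand of the gene, with both parts of each ERSE in capitals. A match in the opposite direction reads as CGTGG, 9 bases and ATTGG. Each stretch was found exactly once on its chromosome in mm9, at chr2:34627520-34627583 (plus strand) for Hspa5, chr10:86168258-86168426 (minus strand) for Hsp90b1 and chr8:87370954-87371017 (minus strand) for Calr.
Hspa5: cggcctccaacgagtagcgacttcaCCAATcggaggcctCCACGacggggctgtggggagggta
Hsp90b1: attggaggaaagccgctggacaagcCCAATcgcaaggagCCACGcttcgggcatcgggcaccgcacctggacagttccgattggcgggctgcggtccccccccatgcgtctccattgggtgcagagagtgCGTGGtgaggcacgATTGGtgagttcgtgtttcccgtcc
Calr: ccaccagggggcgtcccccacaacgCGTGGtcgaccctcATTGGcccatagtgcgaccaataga

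The ERSE of Hspa5 began 65 bases before its start (position -65), those of Hsp90b1 at -212 and -107 and that of Calr at -162. All lay upstream of the protein-coding transcripts of these genes in the GENCODE vM1 annotation of mm9, although a non-coding transcript of Hspa5 is annotated to begin further upstream. Neither the related ERSE-II (ATTGG and CCACG with 1 base between them, 0.0365% of windows) nor the core of the UPR element TGACGTGG (0.676% of windows) was found in any of the 10 windows. A match describes these letters only.

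Hspa5, the abundant chaperone BiP that also holds the sensors inactive, had 1005, 982 and 961 normalised counts in control replicates 1 to 3 and 1221, 1315 and 1152 in the Rnf40ΔSC libraries. The lowest Rnf40ΔSC library was above the highest control. The means were 982 ± 22.3 and 1229.6 ± 81.8 (SD, n = 3 each), a 1.25-fold difference. The log2 fold change was 0.32 (standard error 0.09, edgeR adjusted p = 0.00369), and without Rnf40ΔSC replicate 3 it was 0.38 (adjusted p = 0.000257, range over all alternatives 1.14e-06 to 0.0397). Scaled by total counts it was 0.59.

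Hsp90b1, the ER paralogue of HSP90 also called GRP94, had 1113, 1129.8 and 1067 normalised counts in control and 1067, 1073 and 1056 in Rnf40ΔSC libraries. The genotypes overlapped. Its log2 fold change was -0.05 (95% interval -0.22 to 0.12), which turned to 0.22 when scaled by total counts (edgeR adjusted p 0.692 and 0.0375). Annotated in mm9 across Hsp90b1 are 3 non-coding genes, 1 on the opposite strand and 2 on its own, and how reads shared with them were counted is not known.

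Calr, a lectin chaperone that binds calcium, had 1607, 1568 and 1423 normalised counts in control and 1569, 1828 and 1506 in Rnf40ΔSC libraries. Pdia4, a protein disulfide isomerase, had 337, 301 and 302 in control and 356, 317 and 335 in Rnf40ΔSC libraries. Both genes overlapped between genotypes, with Rnf40ΔSC replicate 2 the highest library for Calr and replicate 1 for Pdia4. Their log2 fold changes were 0.09 (95% interval -0.08 to 0.26) and 0.11 (95% interval -0.09 to 0.30), with edgeR adjusted p of 0.454 and 0.434. Scaled by total counts, both were called higher, at 0.36 and 0.37. Under TMM Hspa5 thus passed the test and the other 3 genes of the branch did not. Its 95% interval of 0.15 to 0.49 overlapped those of Calr and Pdia4 but not that of Hsp90b1. Differences between genes were not tested. Within a library Hspa5 stood against Hsp90b1 at log2 ratios of -0.15, -0.20 and -0.15 in control and 0.19, 0.29 and 0.13 in Rnf40ΔSC nerves. This pair was chosen after its values were seen, and library scaling has almost no effect on the ratio.

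Xbp1, the transcription factor whose mRNA is spliced by IRE1, had 354, 368 and 288 normalised counts in control and 329.5, 327 and 327 in Rnf40ΔSC libraries. Dnajb9, the co-chaperone ERdj4 and a target of spliced Xbp1, had 146, 166 and 160.1 in control and 176, 139 and 142 in Rnf40ΔSC libraries. All Rnf40ΔSC values of Xbp1 lay within the control range, and those of Dnajb9 lay on both sides of it. Counts per gene do not separate spliced from unspliced Xbp1 mRNA. The log2 fold changes were -0.03 (95% interval -0.23 to 0.17) for Xbp1 and -0.05 (95% interval -0.29 to 0.20) for Dnajb9, which turned to 0.23 and 0.22 when scaled by total counts. By edgeR 0 genes of this branch passed in either direction, none at an unadjusted p under 0.05, and 0 by DESeq2.

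Atf4, the transcription factor whose translation rises when eIF2 alpha is phosphorylated, had 306, 288 and 294 normalised counts in control and 202, 187 and 207 in Rnf40ΔSC libraries. Every Rnf40ΔSC library lay well below the lowest control. The means were 296 ± 9.56 and 199 ± 10.7 (SD, n = 3 each), and the Rnf40ΔSC level was 0.671 of the control level. The log2 fold change was -0.57 (standard error 0.10, edgeR adjusted p = 3.93e-05), and without Rnf40ΔSC replicate 3 it was -0.59 (adjusted p = 2.82e-05, range over all alternatives 5.65e-06 to 0.02). Scaled by total counts it was -0.30. These are mRNA counts, and ATF4 protein was not measured.

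Ddit3, which encodes the transcription factor CHOP, was counted 8, 16 and 21 times in control and 19, 24 and 22 times in Rnf40ΔSC libraries. After scaling, these were 12.7, 17.4 and 18.1 against 15.7, 28.9 and 17.6 normalised counts, with Rnf40ΔSC replicate 2 the highest and the rest overlapping. The log2 fold change was 0.29 with a 95% interval from -0.36 to 0.94 (edgeR adjusted p = 0.549), and it was 0.02 without Rnf40ΔSC replicate 2. The interval includes rises larger than the fall of Atf4. Ddit3 overlaps Mars on the opposite strand in mm9.

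Trib3, a pseudokinase induced by CHOP and ATF4, had 4, 2 and 2 reads in control and 5, 2 and 8 in Rnf40ΔSC libraries. Chac1, a glutathione-degrading enzyme induced by ATF4, had 0, 5 and 1 reads in control and 0, 1 and 1 in Rnf40ΔSC libraries. Neither was tested. Groups whose libraries all held 3 reads or fewer were treated as undetected, which held for Chac1 in Rnf40ΔSC nerves. No fold change is given for either gene. The core of the C/EBP-ATF response element, TGATGNAA, was present in 3.97% of windows on either strand and in both of these genes, at -193 in Chac1 and after the start in Trib3.

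**Figure D3:**
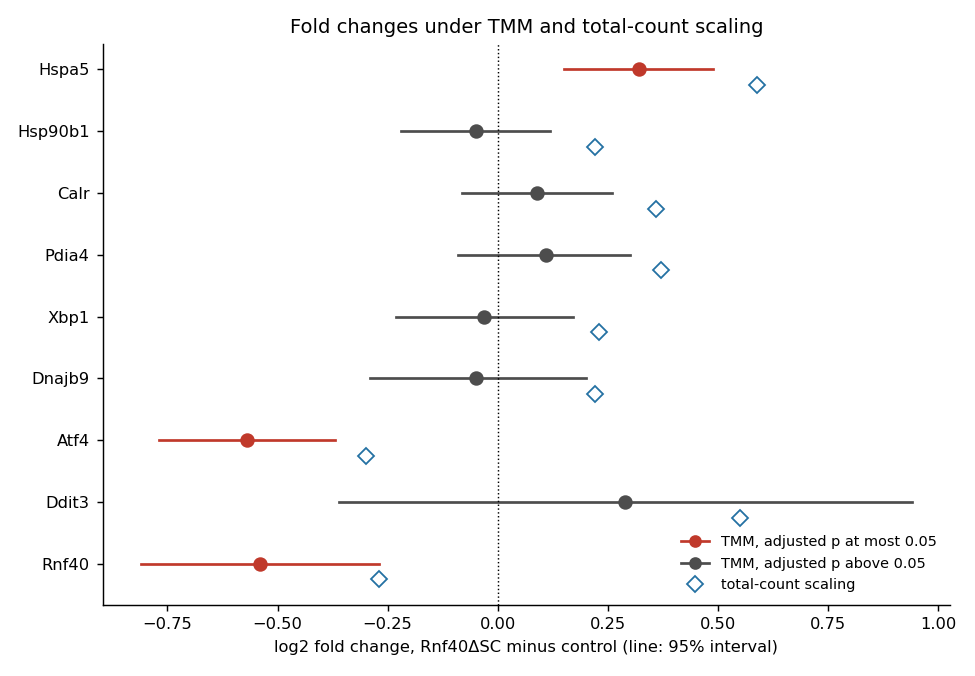
Log2 fold change between Rnf40ΔSC and control nerves (horizontal axis) of the 8 genes tested and Rnf40, with 95% intervals (lines, TMM scaling) and the value scaled by total counts (diamonds). Hspa5 at 0.32 and Atf4 at -0.57 lay clear of 0 under both scalings, whereas Hsp90b1, Xbp1 and Dnajb9 changed sign between them.

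Levels were compared between genes only per kilobase of exon in the mm9 annotation. In control nerves the order was Calr (532 normalised counts per kilobase), Hspa5 (279.5), Hsp90b1 (274), Atf4 (172), Pdia4 (126), Xbp1 (104), Dnajb9 (84.2) and Ddit3 (9.40). Trib3 and Chac1 were not ranked, since single libraries carried their means. Hspa5 and Hsp90b1, neighbours in this order, lay within the spread of their libraries. In Rnf40ΔSC nerves Atf4 (115) stood below Pdia4 (135), and Hspa5 (350.0) was above Hsp90b1 (264).

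The branches were then compared within each library, as differences of the mean log2 normalised count (plus 1). PERK genes minus ATF6 genes gave -6.06, -5.55 and -5.97 in control and -6.33, -6.05 and -5.88 in Rnf40ΔSC libraries, and IRE1 genes minus ATF6 genes gave -1.95, -1.78 and -1.92 against -1.94, -2.15 and -2.03. Both overlapped between genotypes, and PERK genes were not compared with IRE1 genes. Single pairs chosen after their values were seen did not overlap. Atf4 minus Hspa5 was -1.71, -1.77 and -1.70 in control and -2.59, -2.81 and -2.47 in Rnf40ΔSC libraries. Ddit3 minus Atf4 was -4.49, -3.97 and -3.95 against -3.60, -2.65 and -3.49. The PERK mean is carried in part by Trib3 and Chac1, which had 8 reads or fewer in every library.

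**Figure D4:**
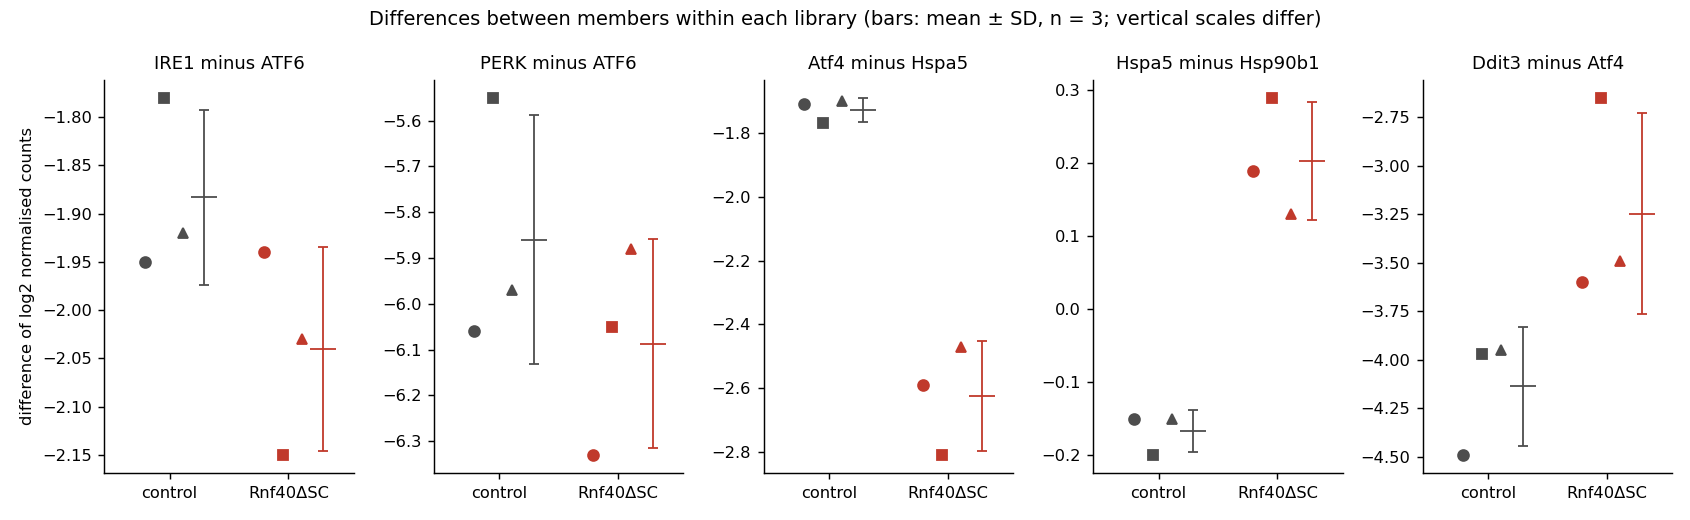
Differences of log2 normalised counts between branches and between single genes within each library (vertical axes, scales differ), control in grey and Rnf40ΔSC in red, with mean ± SD (n = 3). The branch differences overlapped between genotypes, and Atf4 minus Hspa5 was -1.77 to -1.70 in control and -2.81 to -2.47 in Rnf40ΔSC libraries.

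Further genes of the pathway were taken from 7 lists with 89 genes tested, of which 13 rose and 16 fell, with a median log2 fold change of -0.07 beside 0.00 for all genes. These calls were 14.6% and 18.0% of the genes tested, near the 15.5% and 16.2% of all genes. The directions depended on the scaling, as 34 rose and 2 fell under total counts. Under that scaling 32.9% of all genes were higher and 7.79% lower. The higher and lower calls under total counts were 1 and 0 for the sensors, 8 and 0 for the eIF2 list, 3 and 2 for ATF4 and CHOP targets and 5 and 0 for aminoacyl-tRNA synthetases. They were 7 and 0 for other chaperones, 4 and 0 for degradation and 6 and 0 for translocation. Of the 6 sensors and their proteases 2 fell and 0 rose by edgeR (0 higher at an unadjusted p under 0.05 and 0 by DESeq2, which had 1 lower), with a median of -0.30, or -0.04 under total counts. Atf6 had 135, 189.6 and 141 normalised counts in control and 111, 129 and 119.7 in Rnf40ΔSC libraries. It fell by 0.39 in log2 terms (edgeR adjusted p = 0.029), a call that no longer passed under 5 of 13 alternatives. These were total counts (-0.12), both DESeq2 fits and without control replicate 2 (-0.22) or Rnf40ΔSC replicate 1 (-0.32). Mbtps2, the protease S2P that cuts ATF6, had 81, 78.4 and 57.7 against 43.9, 33.8 and 50.3. Its log2 fold change was -0.71 (adjusted p = 0.00523), and scaled by total counts it was -0.45 and not called. The sensor genes Ern1 (IRE1, 7.23 to 20.6 normalised counts) and Eif2ak3 (PERK, 98.1 to 147) overlapped between genotypes. Their log2 fold changes were -0.47 and -0.19 (edgeR adjusted p 0.387 and 0.33), the latter turning to 0.07 under total counts. With 1 library left out, Ern1 ranged from -0.71 to -0.25 and Eif2ak3 from -0.36 to -0.04.

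The list of eIF2 alpha, its kinases other than PERK, phosphatase subunits and eIF2B had a median log2 fold change of 0.43 (0.70 under total counts), and 5 of its 11 genes rose. The count of higher genes was 2 by either DESeq2 fit, 3 with a replicate block, 2 to 4 with 1 library left out and 8 under total counts. Of all genes, 15.5% were higher by edgeR, 15.2% with the block and 32.9% under total counts. The share was 6.38% and 6.53% by DESeq2 without and with its prior, and 11.1% to 16.7% with 1 library left out. By edgeR 0 fell, also at an unadjusted p under 0.05 and by DESeq2. Ppp1r15a, which encodes GADD34, the inducible subunit that directs a phosphatase to eIF2 alpha, had 225, 246 and 188 normalised counts in control and 381, 388 and 384 in Rnf40ΔSC libraries. The genotypes were well apart, and the 3 Rnf40ΔSC libraries were nearly equal. With a log2 fold change of 0.81 (edgeR adjusted p = 1.24e-07, standard error 0.11) it rose past the limits of the study. It was called under all 13 alternatives (adjusted p 1.11e-12 to 9.42e-05), though without control replicate 3 it was at 0.70 and short of those limits. Eif2s1, eIF2 alpha itself, had 41.3, 36 and 39.6 against 66.2, 51.8 and 59 normalised counts and a log2 fold change of 0.62 (adjusted p = 0.0167), but was not called under 5 of 13 alternatives, namely both DESeq2 fits and without control replicate 2 or 3 or Rnf40ΔSC replicate 1. Ppp1r15b, the constitutive counterpart of Ppp1r15a, rose by 0.37 (adjusted p = 0.00278) and was chosen after its values were seen, as were Eif2ak4 (0.55) and Eif2b2 (0.43), which lost their calls under 10 and 9 of 13 alternatives.

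Among 18 other targets of ATF4 and CHOP tested, 5 fell and 0 rose by edgeR (1 higher at an unadjusted p under 0.05), while DESeq2 had 3 lower and 0 higher. With 1 library left out, 3 to 6 fell and 0 to 1 rose. Under total counts 2 fell and 3 rose, and the median log2 fold change of -0.15 turned to 0.12. Ppp1r15a, which rose by 0.81 in log2 terms, was counted in the eIF2 list and is not among these 18. Of all genes, 16.2% were lower by edgeR, 7.79% under total counts and 12.4% to 17.3% with 1 library left out. By DESeq2 without and with its prior, the lower shares were 6.83% and 6.91%. The shares of all genes that were higher are those given for the eIF2 list. Slc3a2, the heavy chain shared by several amino acid transporters, had 267, 339.9 and 320.2 normalised counts in control and 202, 178 and 204 in Rnf40ΔSC libraries, without overlap. The log2 fold change of -0.67 (adjusted p = 7.13e-06, standard error 0.11) was called under all 13 alternatives. Its partner Slc7a5, the leucine transporter LAT1, had 113, 126 and 99.8 against 61.3, 91.6 and 70.2. Its log2 fold change was -0.62 (adjusted p = 0.00306), and scaled by total counts it was -0.35 and not called. The remaining 3, chosen after their values were seen, were Psat1 of serine synthesis (-0.56), the stress protein Nupr1 (-0.54) and Aldh18a1 of proline synthesis (-0.53). Psat1 was called under all 13 alternatives, Nupr1 lost its call under 7 and Aldh18a1 under 10. Without Rnf40ΔSC replicate 1 Aldh18a1 was at -0.32. Of 11 cytosolic aminoacyl-tRNA synthetases, also known targets of ATF4, 1 rose and 0 fell by edgeR (0 lower at an unadjusted p under 0.05, 0 by DESeq2), with a median of -0.18, or 0.09 under total counts. The 1 that rose was Tars, at 145, 118 and 127 against 166, 200.1 and 169 normalised counts (log2 fold change 0.46, adjusted p = 0.00461).

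Of 18 other ER chaperones and foldases tested, 2 rose and 3 fell, with a median of -0.10 (0.17 under total counts). With 1 library left out, 0 to 4 rose and 2 to 3 fell, and DESeq2 had 1 of each. Here and in the lists that follow, the shares of all genes are those given above. The higher shares stand with the eIF2 list and the lower shares with the ATF4 and CHOP targets. Dnajc3, the co-chaperone P58IPK that restrains PERK, had 216, 270.2 and 226 normalised counts in control and 179, 203 and 159.6 in Rnf40ΔSC libraries. Its log2 fold change was -0.41 (adjusted p = 0.0062), but it was not called under 4 of 13 alternatives, namely total counts (-0.14), both DESeq2 fits and without control replicate 2. Fkbp2, a prolyl isomerase, had 55.6, 28.3 and 49.9 against 17.4, 38.6 and 22.3 and overlapped. Its log2 fold change of -0.81 (adjusted p = 0.0257) was past the limits of the study but called under only 5 of 13 alternatives. The others, chosen after their values were seen, were Calu, which fell (-0.39), and Ppib and Dnajb11, which rose (0.35 each). Their calls were lost under 1, 2 and 7 of 13 alternatives.

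In ER-associated degradation 1 of 12 genes tested rose and 3 fell (1 and 1 by DESeq2), with a median of -0.08 (0.19 under total counts). Derl2, a channel component, had 54, 54.5 and 59.4 normalised counts in control and 74.5, 97.7 and 90.2 in Rnf40ΔSC libraries (log2 fold change 0.63, adjusted p = 0.00497). Edem1, a mannosidase-like protein and target of Xbp1, had 92.1, 83.9 and 68.9 against 54.6, 50.6 and 49.5 (log2 fold change -0.64, adjusted p = 0.00551), and was not called under total counts (-0.37) or either DESeq2 fit. Also lower, and picked once their values were known, were Sel1l (-0.33) and Herpud1 (-0.60), whose calls were lost under 1 and 4 of 13 alternatives. Of 13 genes tested for translocation into the ER 4 rose and 3 fell, with a median of 0.00 (0.27 under total counts). With 1 library left out, 1 to 4 rose and 1 to 2 fell, and DESeq2 had 2 higher and 1 lower. Spcs1, a subunit of the signal peptidase, had 178, 186 and 207 against 320.4, 363 and 216 (log2 fold change 0.63, adjusted p = 0.0107), and Rnf40ΔSC replicate 3 was close to the controls. It lost its call without control replicate 1 or 2 or Rnf40ΔSC replicate 1 (adjusted p 0.0598, 0.0672 and 0.0531), and without Rnf40ΔSC replicate 3 it was 0.83. Ssr4, of the translocon-associated complex, had 71.5, 54.5 and 88.7 against 90.2, 131 and 92.6 (log2 fold change 0.51, adjusted p = 0.0258) and was not called under 5 of 13 alternatives. The other called genes of this list were picked once their values were known. Ssr1 (-0.47), Spcs3 (-0.31) and Sec61b (-0.90) fell, and lost their calls under 1 of 13, 8 of 13 and 9 of 12 alternatives. Spcs2 (0.38) and Sec61a1 (0.27) rose, and lost theirs under 0 and 6 of 13.

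**Figure D5:**
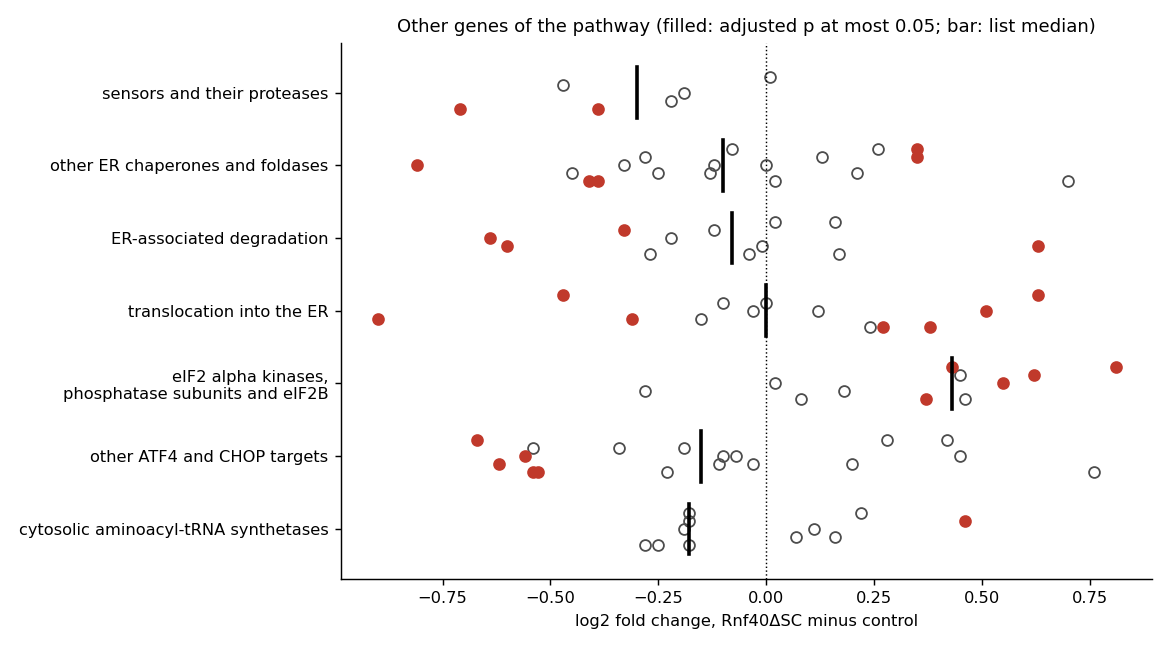
Log2 fold change between Rnf40ΔSC and control nerves (horizontal axis, TMM scaling) of every gene tested in 7 lists, 1 circle a gene, filled where the adjusted p was at most 0.05, with the list median as a bar. The eIF2 list had the highest median, 0.43, and the sensors the lowest, -0.30.

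The ERSE and the C/EBP-ATF core were also looked for in the windows of the listed genes. An ERSE was found in 10 genes, the 3 above included, and of the 8 tested among them 1 rose (Hspa5) and 1 fell (Dnajc3) under TMM. Scaled by total counts, Hspa5, Hsp90b1 and Calr were called higher (0.59, 0.22 and 0.36), and Dnajc3 was not called (-0.14). The C/EBP-ATF core was found in 15 genes, among them 5 of 8 aminoacyl-tRNA synthetases with a window. Of the 11 tested 1 rose (Tars) and 2 fell (Nupr1 and Herpud1) under TMM. Scaled by total counts, Tars was at 0.73 and still called, and Nupr1 (-0.28) and Herpud1 (-0.34) were not. Under TMM most genes with either motif did not pass in any direction, and 15.5% of all genes tested were higher and 16.2% lower. Under total counts these shares of all genes were 32.9% and 7.79%.

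For Hspa5, Xbp1 and Ddit3, as heads of the branches, the genes with the most similar profile over the 6 libraries were taken by the smallest root mean square distance of centred log2 normalised counts among tested genes whose base mean was 50 or higher. For Hspa5 these were Lcorl (0.023), Gnb1 (0.026) and Rab1 (0.032). For Xbp1 they were Syne2 (0.033), Fzd2 (0.040) and Pi4ka (0.052), and for Ddit3 Zbed3, H2afy2 and Hmgn1 (0.14 each).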

How the data were processed

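The deposited values are unnormalised counts, which the authors obtained with HTSeq after TopHat alignment to mm9. The submitters' processing notes instead list Bowtie2 2.1.0 and both mm9 and mm10. Strand setting and annotation are not given in the sources used here, so overlapping genes and near-identical copies are uncertain. Groups and replicate numbers came from the labels. The test used edgeR 4.0.16 under R 4.3.3 with limma 3.58.1 (filterByExpr, TMM, robust quasi-likelihood fit, genotype as the only term). Standard errors are the absolute log2 fold change over the square root of the F statistic. The 13 alternatives were RLE and total-count scaling, DESeq2 1.42.0 without and with its fold-change prior, 2 other filters on low counts, the replicate number as a block, and each library left out in turn. The scripts were tested on simulated data. Replicates differed by more than sampling noise (chi-square per degree of freedom 1.78 to 5.21). Nothing says that pools came from separate litters, so p-values measure the spread between pools.

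The members and lists were chosen with earlier results of these data known. Described with values per library are the 10 members, Rnf40, the 2 called genes with the largest change and a base mean of at least 20 in each list, and 2 Schwann cell markers. The sensors Ern1 and Eif2ak3 are given as ranges. The other called genes of each list, whatever their base mean, and 5 more such markers are named without values per library, and the genes nearest in profile to Hspa5, Xbp1 and Ddit3 with a distance.

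Markers not described with the results were summed likewise. Under TMM 3 of 4 perineurial markers fell, 3 of 5 pericyte and smooth muscle, 3 of 5 mast cell and 3 of 6 adipocyte markers. Their most abundant genes were Itgb4, Pdgfrb, Cpa3 and Fabp4, of which Fabp4 did not pass. Under total counts 2 fell in each list, by DESeq2 2, 3, 1 and 3, and with 1 library left out 2 to 3, 3 to 4, 1 to 3 and 2 to 4. Of all genes, 16.2% were lower under TMM, 7.79% under total counts and 12.4% to 17.3% with 1 library left out. By DESeq2 without and with its prior, 6.83% and 6.91% of all genes were lower. B and plasma cell markers had 1 gene tested, Sdc1, which was called lower by edgeR but not under total counts or by DESeq2, and Cd79a at 0 in all libraries. T cell markers had 0 tested. The 1 neuron marker tested, Snap25, was called higher by edgeR but not by DESeq2.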

Additional observations from a re-analysis of the deposited data

How the results depend on the processing

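Hspa5 stayed higher and Atf4 lower, past an adjusted p of 0.05, under all 13 alternatives, with log2 fold changes of 0.28 to 0.59 and -0.59 to -0.30. Members past the limits of the study numbered 0 under each. Scaled by total counts, 4 members were higher, and Hsp90b1 (0.22), Xbp1 (0.23), Dnajb9 (0.22) and Eif2ak3 (0.07) turned positive, as follows from the shift of 0.27 for all genes. Rnf40 was then at -0.27 and not called. Leaving out single libraries gave -0.14 to 0.04 for Xbp1 and -0.16 to 0.02 for Dnajb9, which thus have no stable sign. In the other pathway lists, total counts gave 34 higher and 2 lower, DESeq2 without and with its prior 7 higher and 7 lower each, and leaving out single libraries 6 to 14 higher and 9 to 16 lower, beside 13 and 16. For all genes, 1757 higher and 1841 lower became 3740 and 886 under total counts, 1094 and 1170 with DESeq2 without its prior, and 1120 and 1184 with it. The cause of the differences between tools was not tested. Branch ratios had 8 alternatives of their own, namely raw counts plus 0.5, leaving out the most abundant member of each branch, and each library left out. They kept their sign in these (PERK minus ATF6 -0.33 to -0.07, IRE1 minus ATF6 -0.21 to -0.10). The single-gene ratios and their alternatives were added after the data were seen. Their ranges (Atf4 minus Hspa5 -0.97 to -0.80, Hspa5 minus Hsp90b1 0.33 to 0.41, Ddit3 minus Atf4 0.59 to 1.07) follow from how the pairs were picked and add no support. The alternatives for cell type markers were likewise added after the data were seen.

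With the replicate number as a block, Hspa5 was at 0.32, Atf4 at -0.57 and Rnf40 at -0.54, 1 member was higher and 1 lower, and the lists had 11 higher and 14 lower. Same-numbered libraries did not deviate together (correlations -0.10, -0.02 and -0.06), so the numbers give no pairing.

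At 1317167 to 2468765 counts a library, genes with few reads, here Ddit3, Trib3 and Chac1, cannot be resolved. Whole nerve RNA mixes cell types, the libraries are pools, and mRNA counts show neither splicing of Xbp1 nor protein.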
